A study of Mus musculus with 12 samples.

Results

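This account covers 10 mouse genes of the NF-kappaB system: the subunits Nfkb1, Nfkb2, Rela and Relb, the inhibitors Nfkbia and Nfkbie, the nuclear members of the inhibitor family Nfkbiz and Bcl3, and Tnfaip3 and Tnip1, which restrain the pathway upstream. Array probes were taken when the array files give them one of these gene names and they are not controls. Of 14 such probes, 12 were called well above background by the scanner software in every array of some group (all 3 of them) and were analysed, and they cover all 10 genes. In the whole series, 27682 of 41174 probes met the same criterion. The members were taken by gene name.

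Hippocampal RNA came from male C57BL/6N mice aged 12 weeks that had been given kainate (KA), an agonist of glutamate receptors, as 50 nl of a 20 mM solution in the left dorsal hippocampus, and had recurrent seizures 3 weeks later. Each mouse was then injected in the peritoneum with saline or with 100 µg/kg of LPS (lipopolysaccharide, from the outer membrane of Gram-negative bacteria), and the hippocampi were dissected 4 or 24 h later. The 4 groups are saline 4 h, LPS 4 h, saline 24 h and LPS 24 h, with 3 mice each per the labels. Every group carries the kainate lesion, no group without kainate was analysed here, and the labels do not say whether the injected or the other side was used.

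NF-kappaB proteins are dimers of Rel family subunits that wait in the cytoplasm bound to inhibitors of the IkB family. When receptors for LPS or for inflammatory cytokines signal, a kinase complex marks the inhibitor for destruction, the dimer enters the nucleus and switches on genes of inflammation, among them the genes of its own inhibitors, which close a negative feedback loop. In brain, microglia, astrocytes and endothelial cells are known to use this route in response to LPS in the circulation.

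Several member promoters hold letters that match the NF-kappaB binding site, and 5 windows are shown, with and without a match. The members they belong to all rose at 4 h after LPS, but Tnip1 did not pass the test at 24 h. Nfkbie and Tnfaip3 also rose at 4 h, and their windows are not printed. The RefSeq table (assembly GRCm38.p6) gave a window of 300 bases, 250 before and 50 after the start of transcription, for 7 of the 10 members. It was searched on both strands for the NF-kappaB consensus, a degenerate motif of 10 letters, and overlapping matches were merged. A match was present in 6 of the 7: Nfkb2, Nfkbia, Nfkbie, Bcl3, Tnfaip3 and Tnip1. Rela had none. Over all genes with a window, 2581 of 27025 (9.55%) held a match, and over all 32851 windows 8.46% did. Windows are written 5′ to 3′ on the strand of the gene, with matches in capitals.
Nfkb2, chr19:46304487-46304786, plus strand: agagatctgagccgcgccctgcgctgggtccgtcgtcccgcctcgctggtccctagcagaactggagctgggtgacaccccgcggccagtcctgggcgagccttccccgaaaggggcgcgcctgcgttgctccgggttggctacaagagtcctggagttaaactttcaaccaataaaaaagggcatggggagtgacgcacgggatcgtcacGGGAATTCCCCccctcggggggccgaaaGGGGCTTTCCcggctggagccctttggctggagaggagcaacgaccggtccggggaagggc
Nfkbia, chr12:55492598-55492897, minus strand: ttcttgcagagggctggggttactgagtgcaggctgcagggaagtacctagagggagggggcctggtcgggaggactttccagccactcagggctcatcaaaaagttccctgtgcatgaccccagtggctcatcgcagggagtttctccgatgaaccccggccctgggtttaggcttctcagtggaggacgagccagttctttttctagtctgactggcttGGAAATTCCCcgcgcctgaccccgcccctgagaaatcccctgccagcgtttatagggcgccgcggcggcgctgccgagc
Bcl3, chr7:19822706-19823005, minus strand: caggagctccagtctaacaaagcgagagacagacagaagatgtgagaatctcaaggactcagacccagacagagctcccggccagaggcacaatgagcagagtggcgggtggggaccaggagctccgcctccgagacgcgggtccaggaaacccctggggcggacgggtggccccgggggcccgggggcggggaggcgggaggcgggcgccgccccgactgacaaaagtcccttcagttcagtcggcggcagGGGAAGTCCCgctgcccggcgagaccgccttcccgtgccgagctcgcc
Tnip1, chr11:54962891-54963190, minus strand: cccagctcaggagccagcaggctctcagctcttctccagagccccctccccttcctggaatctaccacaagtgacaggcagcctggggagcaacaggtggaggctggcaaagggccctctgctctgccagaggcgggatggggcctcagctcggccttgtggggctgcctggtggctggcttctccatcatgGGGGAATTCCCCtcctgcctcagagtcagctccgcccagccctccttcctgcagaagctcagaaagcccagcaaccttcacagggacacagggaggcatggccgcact
Rela, chr19:5637291-5637590, plus strand: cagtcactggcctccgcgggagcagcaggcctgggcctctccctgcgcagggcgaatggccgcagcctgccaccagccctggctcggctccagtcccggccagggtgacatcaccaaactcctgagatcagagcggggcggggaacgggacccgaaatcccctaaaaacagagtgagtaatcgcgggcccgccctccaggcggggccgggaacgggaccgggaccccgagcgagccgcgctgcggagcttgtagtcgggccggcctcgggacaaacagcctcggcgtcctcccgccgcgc

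Nfkb2 has 3 windows in the table, all with a match, of which the first is printed. Its matches begin 39 and 11 bases before the start of transcription, that of Nfkbia 29 bases before and that of Tnip1 58 bases before, whereas that of Bcl3 begins at base 253 of the window, after the start. In Tnfaip3 the matches GGGACACCCC and GGAAATCCCC begin 125 and 12 bases before the start, and in Nfkbie the match GGGGGATTCC begins 106 bases before it. Tnfaip3 has a second window in the table, with 0 matches. A match describes letters in the window and does not show that a protein binds there.

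The series measures RNA with probes of 60 bases, and their positions are given on the mouse build of the array files, mm9. The probes of Nfkb2 and Nfkbia are printed in full, with no capitals, because each is spread over more of the genome than its own length, 140 and 496 bases.
Nfkb2 probe, chr19:46386146-46386285, plus strand: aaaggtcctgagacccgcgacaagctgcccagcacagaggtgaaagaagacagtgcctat
Nfkbia probe, chr12:56590945-56591440, minus strand: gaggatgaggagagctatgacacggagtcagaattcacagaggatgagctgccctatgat

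Levels are the log2 processed fluorescence of a probe minus the 75th percentile of its array, so that 0 is the brightness of the probe at that percentile and a difference of 1 is a 2-fold change. They compare groups for 1 probe and are not comparable between probes. The means of the 4 groups were fitted in limma over all probes, and differences are given with the standard error (SE) of that fit and a two-sided p adjusted by Benjamini-Hochberg over 27682 probes; called higher or lower means an adjusted p under 0.05, with 3 arrays per group throughout.

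The saline 4 h arrays stood apart from the others. The 75th percentile of their processed intensity was 352 to 376, against 633 to 903 on the other 9 arrays, and the number of arrays limits the precision. Summed linear levels of markers are in units of the 75th percentile of the array. Those of 7 hippocampal excitatory neuron markers were lowest on the saline 4 h arrays (38.3 to 38.8, with Neurod1 not well above background). The other groups had 58.3 to 82.1. Thalamic (15.9 to 16.5), astrocyte (214 to 222) and endothelial sums (48.8 to 49.6), of 7 markers each, were highest in saline 4 h. So was that of 5 oligodendrocyte markers (261 to 267, against 149 to 218 in the other groups). The choroid plexus sum, with 4 of 5 markers measured, was 19.8 to 20.9 and overlapped that of LPS 24 h (19.7 to 21.2). In saline 4 h such sums rest most on the brightest probes, Tcf7l2 for thalamus, Gfap and Slc1a2 for astrocytes and Cldn5 and Flt1 for endothelium. The brightest probes differed in other groups. In saline 24 h Calb2 (mean level 0.54) was above Tcf7l2 (-0.40) and Slc1a3 (5.03) above Gfap (4.48). Gene by gene, saline 24 h against saline 4 h had 7 of 7 neuronal markers higher (median difference 1.21), 2 thalamic markers higher and 4 lower (-0.69), 3 astrocyte markers higher and 4 lower (-0.65), 0 microglial markers higher and 6 lower (-1.14) and 1 endothelial marker higher and 4 lower (-0.23). Prox1 of the neuronal list, Tcf7l2, Rora, Gfap and Flt1 have probes called in both directions between LPS and saline at 4 h. Agreement between the probes of these markers was not checked for saline 24 h against saline 4 h. In these bulk samples fewer cells of a type and less RNA per cell cannot be told apart. On each of the 6 slides a saline array was paired with an LPS array of its own time. All 4 h arrays were scanned on 1 day and all 24 h arrays on another, so time and scan day cannot be told apart. LPS at 4 h was also set against the saline 24 h arrays.

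The first comparison asks how the NF-kappaB system differs 4 h after LPS. Of the 12 probes, 11 were higher and 0 lower, against 31.6% of all probes called higher and 39.4% called lower. At least 2-fold higher were 5, against 8.81% of all probes. The genes with a higher probe number 9, the exception being Relb. The median difference of the 12 probes was 0.62 and that of all probes -0.08. At 24 h again 11 probes were higher and 0 lower, against 20.8% and 20.9% of all probes, and the exception was Tnip1; 1 probe, of Bcl3, was at least 2-fold higher, against 2.69%. The median was 0.47 and that of all probes 0.003. In both comparisons every probe called higher had its 3 LPS arrays above its 3 saline arrays, a pattern seen in 32.9% of all probes at 4 h and 27.6% at 24 h. The filter could pass a probe through the group where it was bright, so these counts describe the probes that passed.

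**Figure D1:**
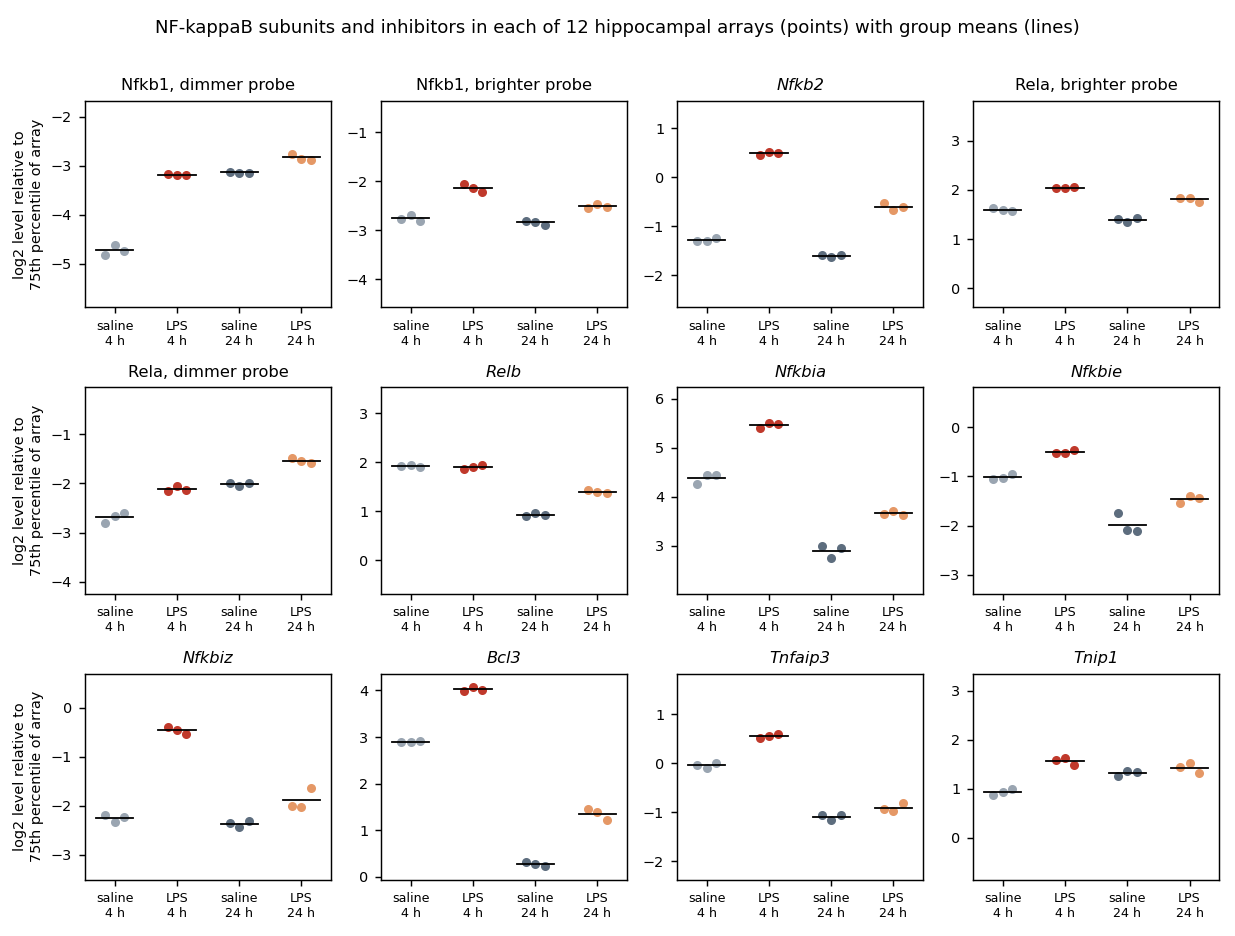
Level of each of the 12 probes on each of the 12 arrays, as log2 relative to the 75th percentile of the array, by group; points are arrays, lines are means of 3. For Bcl3, Nfkbia, Nfkbie, Relb and Tnfaip3 both 4 h groups lie above both 24 h groups, and for Nfkb2 and Nfkbiz the LPS 4 h group lies above the other 3.

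Among the subunits, Nfkb2, which encodes p100 and its processed form p52, the partner of RelB in the non-canonical pathway, had the largest fitted differences by the brighter probes at both times. Its level was -1.29, -1.29 and -1.24 on the saline 4 h arrays and 0.45, 0.52 and 0.49 on the LPS 4 h arrays. At 24 h it was -1.59, -1.62 and -1.58 with saline and -0.53, -0.67 and -0.61 with LPS. The LPS arrays lay above the saline arrays at each time with no overlap, and the 4 groups did not overlap in any pair of neighbours. The rise was 1.76 ± 0.04 (SE) at 4 h, which is 3.39-fold (adjusted p = 4.92e-10 by limma), and 0.99 ± 0.04 at 24 h (adjusted p = 6.93e-08). On the 3 slides of each time, LPS minus saline was 1.74 to 1.78 and 0.96 to 1.06. The rise at 24 h was smaller than that at 4 h, with a difference between the times of -0.77 ± 0.06 (adjusted p = 1.22e-06).

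Rela encodes p65, the subunit of the canonical dimer that carries the activation domain. The brighter of its probes (chr19:5647632-5647691, plus strand) read 1.64, 1.58 and 1.58 with saline and 2.04, 2.03 and 2.07 with LPS at 4 h. At 24 h the readings were 1.40, 1.35 and 1.42 with saline and 1.84, 1.83 and 1.76 with LPS. The LPS arrays were again the higher ones at both times, by 0.45 ± 0.03 (adjusted p = 1.13e-06 by limma) and 0.42 ± 0.03 (adjusted p = 9.06e-06). The difference between these responses was -0.03 ± 0.05 (adjusted p = 0.668), and it was -0.12 with the percentile over probes above background on all arrays (adjusted p = 0.047). The dimmer probe (chr19:5647136-5647195, plus strand), present in 10 spots per array, gave 0.58 ± 0.05 at 4 h and 0.47 ± 0.05 at 24 h, both called, but at 4 h it did not pass under normexp, another background correction (0.24, adjusted p = 0.0766).

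Nfkb1 encodes p105 and its product p50, the usual partner of p65. It has 4 probes on the array, and the accession of none is listed for the gene in the RefSeq table. The brighter of the pair that passed (chr3:135275144-135275203, minus strand) read -2.76, -2.68 and -2.82 with saline and -2.06, -2.13 and -2.21 with LPS at 4 h. The 24 h readings were -2.81, -2.82 and -2.89 and -2.54, -2.46 and -2.53. LPS was above saline at both times, by 0.62 ± 0.05 (adjusted p = 1.79e-06 by limma) and 0.33 ± 0.05 (adjusted p = 0.000633). The dimmer probe (chr3:135274175-135274234, minus strand) gave 1.54 ± 0.05 and 0.31 ± 0.05, but only 1 of the 3 saline 4 h arrays was well above background there. Under normexp neither Nfkb1 probe was called at either time (0.24 for the brighter at 4 h, adjusted p = 0.115 by limma), and in the deposited matrix the brighter was not called at 24 h (0.11, adjusted p = 0.109). Of the probes that did not pass, the one present in 10 spots per array was well above background on 0 of 12 arrays and the other on 2, both LPS 4 h. The former lies at chr3:135247710-135247771, minus strand, apart from the pair that passed. None of the 4 probes was placed in exons or introns, and whether they read the same transcript was not tested.

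Relb, the subunit that pairs with p52, was called at 24 h and not at 4 h. Its probe (chr7:20191722-20191781, minus strand) read 1.92, 1.94 and 1.90 with saline and 1.87, 1.91 and 1.95 with LPS at 4 h, and these arrays overlapped. At 24 h it read 0.90, 0.97 and 0.92 with saline and 1.43, 1.40 and 1.37 with LPS, all LPS arrays above all saline arrays. The difference was -0.02 ± 0.03 at 4 h (adjusted p = 0.698 by limma) and 0.47 ± 0.03 at 24 h (adjusted p = 3.96e-06). The response at 24 h exceeded that at 4 h by 0.48 ± 0.05 (adjusted p = 1.02e-05). The sign at 4 h depended on the scaling: it was 0.09 with quantile normalization (adjusted p = 0.0376), 0.09 with the percentile taken over probes above background on all arrays (adjusted p = 0.0218) and -0.18 with median scaling (adjusted p = 0.00336). Against saline 24 h, LPS 4 h was higher by 0.98 ± 0.03 (adjusted p = 4.47e-09).

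**Figure D2:**
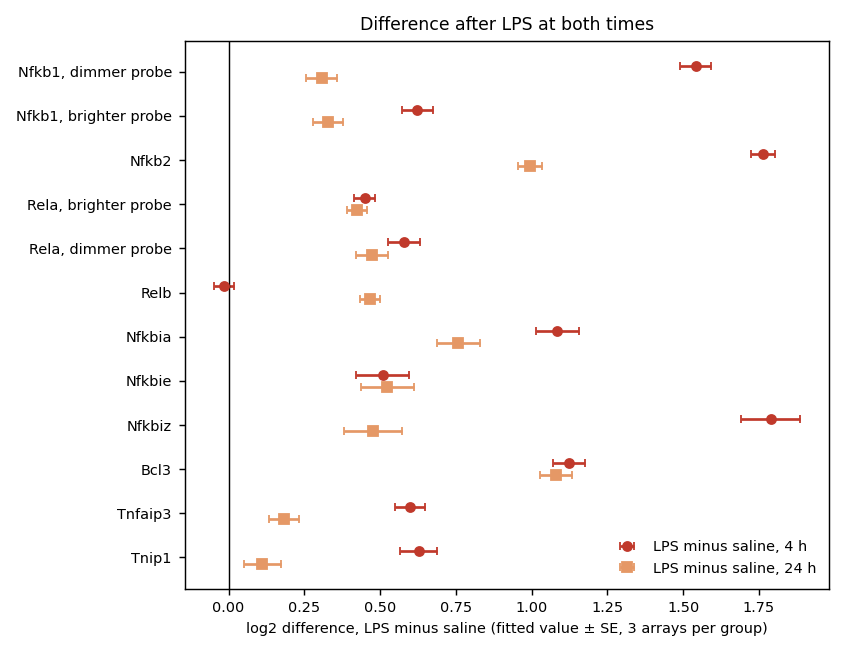
Fitted log2 difference, LPS minus saline, at 4 h (circles) and 24 h (squares) for each of the 12 probes, with bars of 1 SE and 3 arrays per group. Relb lies at -0.02 at 4 h and at 0.47 at 24 h, Bcl3 lies at 1.12 and 1.08, and Nfkbiz goes from 1.79 to 0.48.

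Of the cytoplasmic inhibitors, Nfkbia encodes IkB-alpha, the classical inhibitor that is degraded on activation and made anew by NF-kappaB itself. Its level was 4.25, 4.44 and 4.45 on the saline 4 h arrays and 5.41, 5.50 and 5.49 after LPS. At 24 h it was 3.00, 2.76 and 2.95 with saline and 3.65, 3.71 and 3.63 with LPS. LPS was above saline at each time, while both 4 h groups were above both 24 h groups. The rise was 1.08 ± 0.07 at 4 h, or 2.12-fold (adjusted p = 3.81e-07 by limma), and 0.76 ± 0.07 at 24 h (adjusted p = 2.51e-05). Within slides it was 0.97 to 1.24 and 0.65 to 0.94. The difference between the times, -0.33 ± 0.10, passed the test (adjusted p = 0.0157) but did not under normexp (-0.25, adjusted p = 0.309).

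Nfkbie encodes IkB-epsilon, a slower inhibitor of the same kind. Its probe (chr17:45700000-45700059, plus strand) read -1.04, -1.03 and -0.96 with saline and -0.53, -0.52 and -0.47 with LPS at 4 h, and -1.74, -2.10 and -2.10 with saline and -1.53, -1.40 and -1.44 with LPS at 24 h. Saline 24 h replicate 1 lay above replicates 2 and 3, and the within-slide values ran from 0.21 to 0.69 at 24 h, against 0.44 to 0.58 at 4 h. The fitted rises were 0.51 ± 0.09 (adjusted p = 0.00043 by limma) and 0.52 ± 0.09 (adjusted p = 0.00101), and the difference between them was 0.01 ± 0.12 (adjusted p = 0.926).

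The nuclear members of the inhibitor family act with p50 or p52 on DNA. Nfkbiz encodes IkB-zeta, a co-regulator that p50 dimers need for a set of secondary response genes such as Il6. The probe (chr16:55812091-55812150, minus strand) gave -2.19, -2.33 and -2.23 with saline and -0.39, -0.46 and -0.53 with LPS at 4 h, and -2.36, -2.42 and -2.30 with saline and -2.01, -2.02 and -1.63 with LPS at 24 h. LPS 4 h stood above every other array, and LPS 24 h replicate 3 above the other LPS 24 h arrays. The rise of 1.79 ± 0.10 at 4 h, 3.46-fold, had an adjusted p of 1.05e-07 by limma, and that of 0.48 ± 0.10 at 24 h one of 0.00326. The difference between the times was -1.31 ± 0.14 (adjusted p = 1.65e-05).

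Bcl3 encodes a member that binds p50 and p52 homodimers and can activate or repress. The probe (chr7:20393862-20393921, minus strand) read 2.89, 2.90 and 2.92 with saline and 3.99, 4.06 and 4.02 with LPS at 4 h. At 24 h both groups were far lower, 0.31, 0.28 and 0.24 with saline and 1.45, 1.39 and 1.23 with LPS. The LPS arrays were above the saline arrays of their own time, by 1.12 ± 0.05 (adjusted p = 4.19e-08 by limma) and 1.08 ± 0.05 (adjusted p = 2.9e-07), or 2.18-fold and 2.12-fold. The difference between these responses was -0.04 ± 0.07 (adjusted p = 0.657), and in the deposited matrix it was -0.24 (adjusted p = 0.0137). Within slides the rise was 1.09 to 1.14 at 4 h and 0.99 to 1.14 at 24 h.

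Both upstream brakes rose at 4 h. Tnfaip3 encodes A20, a ubiquitin-editing enzyme that stops signalling from the receptors to the kinase complex. Its probe (chr10:18720994-18721053, minus strand) read -0.03, -0.10 and -0.01 with saline and 0.51, 0.55 and 0.60 with LPS at 4 h, and -1.07, -1.15 and -1.06 with saline and -0.94, -0.98 and -0.82 with LPS at 24 h. The rise was 0.60 ± 0.05 at 4 h (adjusted p = 2.06e-06 by limma) and 0.18 ± 0.05 at 24 h (adjusted p = 0.014). The latter call was lost under normexp (adjusted p = 0.211), median scaling (0.254), the deposited matrix (0.151), a fit of the 24 h arrays alone (0.0523) and without saline 24 h replicate 2 (0.0519). The difference between the times, -0.41 ± 0.07, had an adjusted p of 0.000469.

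Tnip1 encodes ABIN-1, which binds A20 and ubiquitin chains. Its probe (chr11:54724507-54724566, minus strand) gave 0.87, 0.93 and 0.99 with saline and 1.58, 1.62 and 1.48 with LPS at 4 h, a rise of 0.63 ± 0.06 (adjusted p = 7.01e-06 by limma). At 24 h it gave 1.25, 1.36 and 1.33 with saline and 1.45, 1.52 and 1.31 with LPS; these arrays overlapped, and the difference of 0.11 ± 0.06 did not pass (adjusted p = 0.177). Without LPS 24 h replicate 3 it was 0.17 and passed (adjusted p = 0.0399). The difference between the times was -0.52 ± 0.09 (adjusted p = 0.00045).

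Set side by side, the responses of the 2 times differed for 8 of the 12 probes, against 65.9% of all probes: 7 were lower at 24 h than at 4 h, against 28.3% of all probes, and 1, of Relb, was higher, against 37.6%. By gene, with the brighter probe of each, these were Nfkb1, Nfkb2, Nfkbia, Nfkbiz, Tnfaip3 and Tnip1 in the lower direction. Under normexp neither Nfkb1 probe passed (-0.07, adjusted p = 0.782 by limma for the brighter). Rela, Nfkbie and Bcl3 were called in neither. The largest of the differences by the brighter probes were those of Nfkbiz (-1.31) and Nfkb2 (-0.77). The median over the 12 probes was -0.31 and that over all probes 0.11.

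The saline arrays themselves differed between the times. At 24 h, 7 of the 12 probes were lower than at 4 h and 3 were higher, against 41.5% and 38% of all probes. Bcl3 was -2.63 ± 0.05 (adjusted p = 6.86e-11 by limma), or 6.18-fold lower at 24 h. Nfkbia was -1.48 ± 0.07 and Tnfaip3 -1.05 ± 0.05. Relb was -0.99 ± 0.03 and Nfkbie -0.97 ± 0.09, while Nfkb2 differed less (-0.32 ± 0.04). Tnip1 went the other way, at 0.38 ± 0.06 (adjusted p = 0.000206). The dimmer Nfkb1 probe was also higher, at 1.59 ± 0.05 (adjusted p = 1.17e-09), and was 0.03 under normexp (adjusted p = 0.853). Nfkbiz, at -0.11 ± 0.10 (adjusted p = 0.309), and the brighter Nfkb1 probe, at -0.09 ± 0.05 (adjusted p = 0.143), were not called, although both were called lower under normexp, quantile normalization and median scaling. The probes of Rela disagreed: the brighter was -0.21 ± 0.03 and the dimmer 0.68 ± 0.05, and under normexp neither was called (adjusted p = 0.128 and 0.392). The brighter was also not called with quantile normalization (-0.04, adjusted p = 0.328), with the percentile over probes above background on all arrays (adjusted p = 0.876) or in the deposited matrix (adjusted p = 0.979).

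Beside these differences, summed endothelial markers, with all 7 measured, went from 48.8 to 49.6 in saline 4 h to 24.6 to 26.0 in saline 24 h. Markers of neutrophils and blood monocytes, 6 of 7 measured, summed to 19.4 to 19.6 and 9.52 to 10.3 in these groups and to 25.1 to 25.9 in LPS 4 h and 21.2 to 22.9 in LPS 24 h; Ngp and Mmp8 were not well above background with saline at either time. This sum rests most on Ly6c2, which was not called at 4 h after LPS (-0.03, adjusted p = 0.591 by limma), while 5 of the 6 were higher there (median 2.76), among them S100a9 (3.71) and Plac8 (2.35), and 6 of 6 at 24 h (median 1.27). Mmp8, counted among the 6 at 24 h, was not well above background with LPS there either, so its call has no fold. The medians of this list use fitted values, also for Ngp and Mmp8, and give no bound. After LPS, endothelial markers summed to 18.3 to 18.6 at 4 h and 30.9 to 33.6 at 24 h. At 4 h, 1 microglial marker was higher and 5 lower and 1 endothelial marker higher and 6 lower. At 24 h, 6 of 7 were higher in each of these lists. Neuronal markers were 6 of 7 higher at 4 h (median 0.82), and 0 higher and 4 lower at 24 h (median -0.16). Thalamic markers had 3 higher and 3 lower at 4 h and 7 of 7 higher at 24 h. Astrocyte markers had 3 higher and 3 lower at 4 h and 4 higher and 2 lower at 24 h. The part of these markers in the levels of the members was not tested.

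Against the saline 24 h arrays, LPS 4 h had 10 of the 12 probes higher and 0 lower, against 35.5% and 35.4% of all probes, and all 10 genes had a higher probe. This comparison shares the LPS 4 h arrays with the first, so the values stand side by side. Bcl3 was 3.75 ± 0.05 (adjusted p = 1.62e-11 by limma) in place of 1.12, Nfkbia 2.56 ± 0.07 in place of 1.08 and Tnfaip3 1.65 ± 0.05 in place of 0.60. Nfkbie was 1.48 ± 0.09 in place of 0.51. Nfkb2 (2.08 ± 0.04), Nfkbiz (1.90 ± 0.10), and the brighter probes of Nfkb1 (0.71 ± 0.05) and Rela (0.66 ± 0.03) stood in place of 1.76, 1.79, 0.62 and 0.45. Tnip1 was the smallest of the called, at 0.24 ± 0.06 (adjusted p = 0.00506). The dimmer probes of Nfkb1 (-0.05 ± 0.05, adjusted p = 0.438) and Rela (-0.10 ± 0.05, adjusted p = 0.109) turned negative and were not called.

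**Figure D3:**
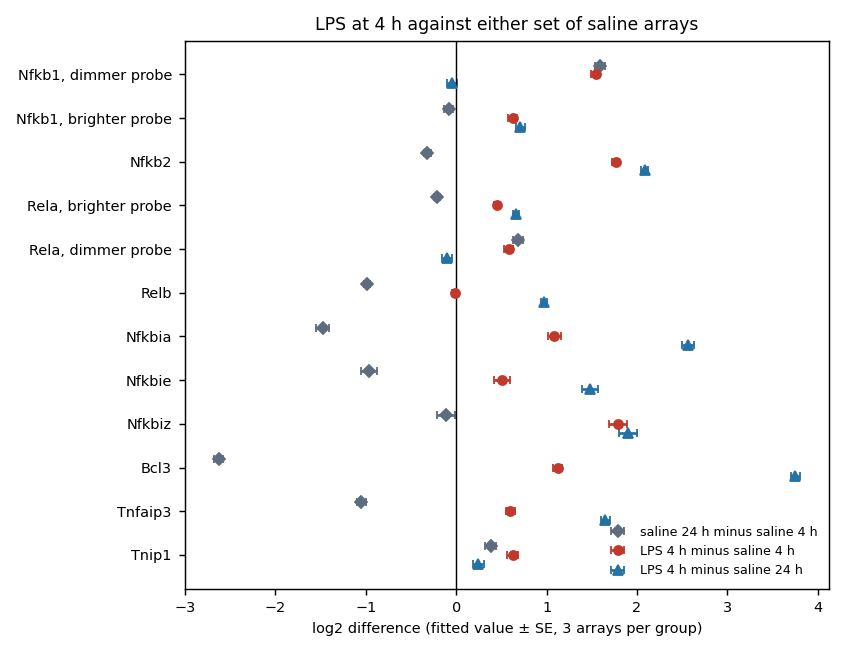
Fitted log2 differences with bars of 1 SE for saline 24 h minus saline 4 h (diamonds), LPS 4 h minus saline 4 h (circles) and LPS 4 h minus saline 24 h (triangles), 3 arrays per group. Bcl3 lies at -2.63, 1.12 and 3.75 and Nfkb2 at -0.32, 1.76 and 2.08; the dimmer probes of Nfkb1 and Rela are the only ones left of 0 among the triangles.

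Other genes of the pathway were taken from 5 lists with 1 probe per gene, and their counts stand beside the shares of all probes called higher and lower, 31.6% and 39.4% at 4 h and 20.8% and 20.9% at 24 h. Of the other members of the Rel and IkB families, 2 of 3 were measured. Nfkbib, which encodes IkB-beta, rose by 0.50 ± 0.07 at 4 h (adjusted p = 6.17e-05 by limma) and was 0.16 ± 0.07 at 24 h (adjusted p = 0.0761). Nfkbid, a nuclear inhibitor, was not well above background on any saline 4 h array and was at least 1.15-fold higher after LPS, where the saline level is replaced by the dimmest measurable signal of those arrays, or by the probe's own if brighter (adjusted p = 0.00146). At 24 h it rose by 0.55 ± 0.13 (adjusted p = 0.00813).

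Of the kinases of the pathway and their adaptors, 10 were measured: 3 were higher, 2 lower and 5 neither at 4 h, and 2, 2 and 6 at 24 h. The medians were -0.06 and 0.09. The catalytic subunits of the IkB kinase complex, Chuk and Ikbkb, were not called at either time (-0.02 ± 0.08 and -0.09 ± 0.08 at 4 h, 0.10 ± 0.08 and 0.22 ± 0.08 at 24 h). Map3k14, which encodes NIK, the kinase of the non-canonical pathway, rose at both times (0.30 ± 0.04 and 0.28 ± 0.04). The regulatory subunit of the canonical complex, Ikbkg, was 0.35 ± 0.05 at 4 h and -0.38 ± 0.05 at 24 h, called in opposite directions, and so was Tab3, an adaptor of the kinase TAK1 (0.69 ± 0.06 and -0.25 ± 0.06). Tab1, another adaptor of TAK1, fell by 1.15 at 4 h, and Tbk1 was -0.27 ± 0.06. Against saline 24 h both were higher, at 0.57 and 0.67. Ikbke, a kinase induced by inflammation, was 1.20 ± 0.18 at 24 h, with 1 of 3 saline arrays well above background.

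Adaptors and ubiquitin ligases between the receptors and the kinases numbered 15, of which 8 rose and 3 fell at 4 h (median 0.17) while 9 rose and 1 fell at 24 h (median 0.18). Myd88, the adaptor of most Toll-like receptors, rose by 0.76 ± 0.05 and 0.76 ± 0.05, and Ripk1, a kinase of TNF receptor signalling, by 0.84 ± 0.06 and 0.88 ± 0.06. Tirap, the bridging adaptor of the LPS receptor, rose by 1.45 ± 0.07 at 4 h and 0.33 ± 0.07 at 24 h, and Irak2 by 0.47 ± 0.05 and 0.36 ± 0.05. Lower at 4 h were Traf2 (-0.45 ± 0.04), Tradd (-0.33 ± 0.06) and Sharpin (-0.26 ± 0.03), 3 of the components of the TNF receptor complexes, and all 3 were higher against saline 24 h (0.59, 0.67 and 0.11). At 24 h Traf5 rose by 0.47 ± 0.05 and Traf6 fell by 0.16.

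Of the deubiquitinases and other brakes, apart from the members, 4 of 9 measured were higher and 3 lower at 4 h, and 2 higher and 3 lower at 24 h, with medians of 0.07 and -0.06. Cyld, which removes ubiquitin chains from signalling adaptors, fell at both times (-0.36 ± 0.04 and -0.46 ± 0.04), and so did Otulin, an enzyme for linear ubiquitin chains (-0.61 ± 0.03 and -0.11 ± 0.03). Against saline 24 h Cyld stayed lower at 4 h (-0.29) and Otulin turned higher (0.49). Tnip2, a relative of Tnip1, rose by 0.30 ± 0.04 and 0.23 ± 0.04. Irak3, an inhibitory kinase-like protein of macrophages, was at least 5.09-fold higher at 4 h (adjusted p = 1.16e-07 by limma) and rose by 0.55 ± 0.15 at 24 h. Tollip was -0.12 ± 0.03 at 4 h, with probes called in both directions. Otud7b, counted as higher at 4 h, also has probes called in both directions at that time.

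Of the known target genes of NF-kappaB, 16 of the 21 measured rose at 4 h and 4 fell, against 31.6% and 39.4% of all probes, with a median of 1.34, which stayed at 1.34 with 4 dim genes at their bound. Irf1, counted as higher at 4 h, has probes called in both directions at that time. At 24 h 16 rose and 1 was called lower, with a median of 0.83. Il1b, encoding interleukin-1 beta, rose 8.58-fold and 3.19-fold, and Cd40, a co-stimulatory receptor, by 3.04 ± 0.05 and 1.31 ± 0.05 on the log2 scale. The chemokine genes Cxcl10 and Ccl2 rose by 2.59 ± 0.05 and 2.72 ± 0.06 at 4 h and by 2.38 ± 0.05 and 2.44 ± 0.06 at 24 h. Csf3, a growth factor of granulocytes, was at least 15.7-fold higher at 4 h. At 24 h it was the gene called lower, but it was not well above background in either group and has no fold. Ccl5, a chemokine for T cells, was -0.03 ± 0.04 at 4 h (adjusted p = 0.5 by limma) and 2.29 ± 0.04 at 24 h. Lower at 4 h were Gadd45b (-0.72 ± 0.09), Sod2 (-0.41 ± 0.04), Csf1 and Traf1; against saline 24 h all 21 were higher, against 35.5% of all probes.

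**Figure D4:**
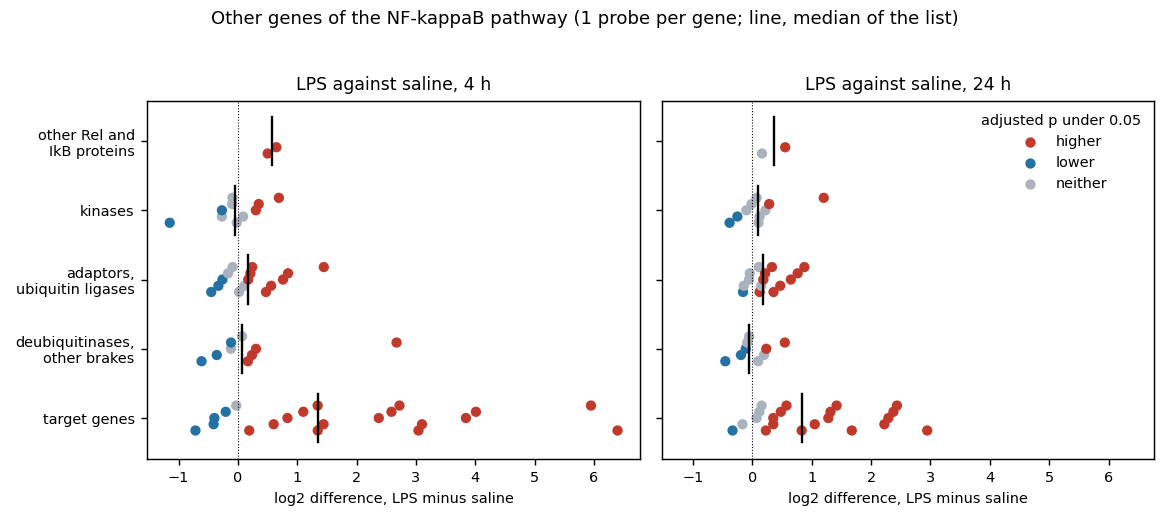
Log2 difference, LPS minus saline, at 4 h (left) and 24 h (right) for the measured genes of 5 lists, 1 probe per gene, coloured by the call at an adjusted p under 0.05; vertical lines are medians and the spread within a row only separates points. Points of genes not well above background in saline are fitted values and give no bound; among targets measured in both groups Cd40 lies at 3.04 at 4 h and Cxcl10 at 2.38 at 24 h, while the medians of kinases, adaptors and brakes lie between -0.06 and 0.18.

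Likeness to Nfkbia over the 12 arrays was ranked among 13100 genes whose probe met the filter. That filter lets a gene be dim in some of the groups. Members were left out, and the gene name had to be a plain symbol of the RefSeq table, not that of a clone or predicted gene. The most alike were Plekhf1 (Pearson r = 0.998), Birc3, Sdc4, Plscr1 and Ccrl2 (r = 0.994 to 0.995). Like Nfkbia they were higher in each 4 h group than in the 24 h group of the same treatment: Plekhf1 had means of -0.77 and 0.38 with saline and LPS at 4 h and -2.35 and -1.56 at 24 h. Most like Nfkb2 were Il1b (r = 0.998), Il4ra, Cdkn1a, Gbp2 and Fcgr3 (r = 0.993 to 0.998). Their means were highest in LPS 4 h, then LPS 24 h: Il4ra had 2.51 and 1.06 there, and 0.27 and -0.22 in saline 4 h and 24 h. These correlations describe 12 arrays in 4 groups that share treatment, time and scan day, and are given with no test.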

How the data were processed

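Processed intensity was read from the 12 deposited files, 1 per array. The software was Agilent Feature Extraction, version 10.7.3.1 per the file headers and 9.1 per the submitters' processing notes; it subtracted background and did not scale arrays to each other. The deposited series matrix holds log2 values with column medians of 6.98 to 6.99. Recomputing normexp (offset 50) and quantile normalization here came within 0.126 log2 units of them for 40929 probes; it served as an alternative.

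Of 43379 transcript spots per array, 926 over all arrays were left out as outliers. Log2 processed intensities were averaged over the spots of 1 probe, then scaled by subtracting the 75th percentile within the array. A probe was kept when the scanner software called it well above background on every array of some group. The 4 group means were fitted in limma (3.58.1, R 4.3.3) with all 12 arrays. Groups come from sample titles. The summed level of the microglial markers is not reported here.

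Each member was described with every passing probe. Of each pathway list and LPS comparison, the genes named were the 4 with the smallest adjusted p among those called. Up to 2 called against the majority were added. A few others (Chuk, Ikbkb, Csf1, Traf1, Irf1, Otud7b) were chosen after their values were seen. The genes most like Nfkbia and Nfkb2 are the 5 with the highest Pearson r. The members and lists were chosen with earlier results of these data known. The alternatives were another background correction, other scalings, the deposited matrix, other filters, probe rules, blocks, the arrays fitted, the saline 24 h controls and leaving out each array. On simulated data with 27682 probes, 75 of 100 probes changed 1.5-fold and 77 of 100 changed 2-fold were recovered at 4 h. There were 8 calls among the unchanged. At 24 h it was 67, 80 and 8. All other simulated probes were left unchanged, whereas in the data 19659 probes were called at 4 h and 11547 at 24 h. These rates therefore do not describe the calls in the data.

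Arrays of a group differed with a median SD per probe of 0.06 to 0.07 on the log2 scale; spots repeated within an array gave 0.05 to 0.10. That the arrays are separate mice rests on the labels, and p-values measure only the spread between these samples.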

Additional observations from a re-analysis of the deposited data

Results flagged for a closer look

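The response to LPS differed between the times, by the test of the difference itself in limma, for 8 of the 12 member probes, a share near that of all probes (65.9%). As the response at 24 h minus that at 4 h on the log2 scale, it was -0.77 for Nfkb2, -0.33 for Nfkbia, -1.31 for Nfkbiz, -0.41 for Tnfaip3 and -0.52 for Tnip1. The Nfkb1 probes gave -0.29 and, for the dimmer one, -1.23, but neither passed under normexp (-0.07, adjusted p = 0.782, and -0.14, adjusted p = 0.656). Relb alone was positive among these, at 0.48. Time and scan day cannot be told apart in this difference. The saline arrays of the times also differed for these genes, as given above, except Nfkbiz and the brighter probe of Nfkb1, for which that difference did not pass.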

How the results depend on the processing

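The call counts over all probes moved by 1.5 times or more with normexp, except in the saline comparison, and with the mean of the probes of a gene name, which tests 18193 features in place of 27682; why normexp gave fewer was not tested. At 4 h 19659 probes were called; normexp gave 11983 and the mean of probes 12810. At 24 h 11547 were called, against 4100 and 7694. For the difference between the times 18251 were called, against 10147 and 11930, and for saline 24 h against saline 4 h 22002, against 14319 with the mean of probes. In the same order of comparisons, 1 probe per gene name (18193 tested) gave 13423, 8384, 12543 and 14689, no filter on dim probes (41174 tested) gave 24934, 10768, 18737 and 31065, and the slide as a block gave 19642, 11254, 18208 and 21962. The share of calls that were higher was 44.5% at 4 h and 49.8% at 24 h, and 32.8% and 29.9% with median scaling; for the saline comparison it was 47.8%, 26.4% with normexp and 58.2% with the percentile over probes above background on all arrays. The median of all probes at 4 h was -0.08, -0.25 with median scaling and 0.03 with that percentile.

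Over all alternatives and left-out arrays, the single member probes kept their direction and their side of the threshold in 276 of 285 cases at 4 h, 264 of 273 at 24 h, 267 of 273 for the difference and 261 of 273 for the saline comparison. Genes with a higher probe numbered 9 at 4 h and 8 to 10 under the alternatives, and 9 at 24 h and 7 to 10; genes with a lower one numbered 0, and 1 at 4 h with median scaling (Relb, -0.18). In the saline comparison 3 genes had a higher probe, 1 with normexp and 1 with 1 probe per gene name. With saline 24 h controls the dimmer probe of Nfkb1 was -0.0467 and that of Rela -0.1025 in place of 1.54 and 0.58. Leaving out each array in turn kept the genes called higher at 9 at 4 h and 8 to 10 at 24 h. With the replicate number as a block, 19382 probes were called at 4 h, 10864 at 24 h, 17937 for the difference and 21782 for the saline comparison. The numbers share no pairing in the labels, and deviations of same-numbered arrays correlated at -0.15 to 0.17 at 4 h and 0.03 to 0.08 at 24 h; arrays of the same slide correlated at -0.05 to 0.25 and 0.03 to 0.08. Of the 4 Nfkb1 probes, 2 were too near background to be analysed.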

Other observations

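In the list of 24 known targets, 18 genes had a RefSeq promoter window and 9 of these held the NF-kappaB consensus, against 9.55% of all genes. The Nfkb1 probe with 10 spots per array had processed intensities of 2.29 to 9.44 over the 12 arrays, and the other Nfkb1 probe that did not pass had 2.12 to 19.1.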
